A study of Mus musculus with 24 samples.

Results

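The comparison described here set all 12 libraries of mice with transverse aortic constriction (TAC) against all 12 libraries of mice with sham surgery, averaged over what the mice breathed afterwards. It used 24 of the 24 libraries of the series. The mice were male C57BL/6 animals of 4 groups of 6. After sham surgery, mice breathed HEPA-filtered air in the group Sham/Air or benzene in the group Sham/Benzene, and after TAC they breathed the same in the groups TAC/Air and TAC/Benzene. Exposure began after 1 week of recovery and lasted 6 weeks, at 6 hours a day on 5 days a week, with benzene at 50 ppm. Poly-A RNA of the left ventricle and septum was sequenced, so every value is an average over the cell types of that tissue. In such bulk RNA, fewer cells of a type and less RNA per cell cannot be told apart. No label ties a library to a named mouse, so the p-values here reflect the spread among libraries, part of which may be technical. The age of the mice is not given in the sources used here.

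TAC narrows the aorta with a ligature and forces the left ventricle to pump against a raised pressure. The ventricle answers with growth of its muscle cells, a return of genes used before birth, deposition of collagen by fibroblasts and a fall in the genes of fatty acid and mitochondrial metabolism. The average over both exposures has more libraries behind each value than a comparison within 1 exposure, and it was used here to describe the smaller changes and the genes with few reads.

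Total counts ran from 4170660 to 14632231 per library. The library with the lowest total, Sham/Air replicate 1, stood apart: its Spearman correlation with each other library was 0.852 to 0.913, against 0.963 to 0.996 among the other 23. The libraries also differed in their trend with GC content: the rank correlation of a gene's deviation with its GC content ran from -0.75 to 0.59 in sham (median 0.05) and from -0.53 to 0.56 in TAC (median 0.43). The surgery labels were checked on genes that mark the loaded ventricle. Atrial natriuretic peptide gene Nppa had 155, 280 and 384 CPM in sham and 2970, 4060 and 4780 CPM in TAC, and slow myosin heavy chain gene Myh7 had 266, 348 and 472 CPM in sham and 2640, 3410 and 3760 CPM in TAC. No TAC library overlapped with a sham library for Nppa, Nppb, Myh7 or Acta1, which were higher in TAC, nor for Myh6 or Atp2a2, which were lower. Here and below, levels are given as the lowest, median and highest of the 12 libraries of a surgery, in CPM, which are counts scaled to a common library size.

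Of 13571 genes tested, 3702 were called, or 27.3%, with 1902 higher in TAC (14.0%) and 1800 lower (13.3%). A gene was called where its adjusted p (edgeR's quasi-likelihood test, Benjamini-Hochberg adjustment over all 13571 genes) was under 0.05. The same fit called 2193 genes in filtered air (16.2%) and 2257 under benzene (16.6%), with 1473 genes called in both. In the average, 903 genes were called that passed in neither exposure alone (6.65%), with 440 higher and 463 lower. They made up 24.4% of the calls of the average. These 3 contrasts share libraries, so the count follows from the thresholds and is no test of a difference between them. Such a choice favours genes with moderate effects of the same direction in both exposures. Agreement between the exposures in these 903 genes is therefore no result. Leaving out Sham/Air replicate 1 raised the calls to 4982, or 36.5% of 13665 genes, with 2531 higher and 2451 lower, and 821 genes were then called in the average only. List counts without that library, given further on, stand against these larger numbers. Of the 903 genes, 882 kept their call and direction in the average without that library. With offsets for the GC and length trend of each library, 772 of the 903 did so. The limma-voom fit, which gives less weight to libraries that stand apart, called 2970 higher and 2781 lower.

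The changes seen in the average only were small. Their absolute log2 fold changes ran from 0.13 to 1.18, with a median of 0.33, and 87.8% of them were under 1.5-fold. The 2799 genes that were also called in at least 1 exposure had a median of 0.55. A log2 fold change of 1 is a doubling, and all log2 fold changes here are TAC against sham. Where a gene is said to rise or fall by a value with a standard error (±), that value is on the log2 scale. Among genes with an absolute log2 fold change under 0.5, 1975 of 11655 were called and 726 of those calls came from the average only. In the range of 0.5 to 1 these numbers were 1194 of 1381 and 165. At 1 or more, 533 of 535 genes were called and 12 of them in the average only.

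The whole range of abundance contributed. Of 577 tested genes with a mean under 1 CPM, 142 were called, 98 higher and 44 lower, and 36 of these in the average only. A gene this weak can pass the filter on low counts through the surgery where it is high. The counts of 98 and 44 thus depend on the filter. The median standard error of the log2 fold change in that class was 0.29 in the average, 0.42 in filtered air and 0.39 under benzene. For 3842 genes between 1 and 10 CPM, 1097 were called, 651 higher and 446 lower. Between 10 and 100 CPM, 1838 of 7341 genes were called, in nearly equal numbers of 917 higher and 921 lower. At 100 CPM or more, 625 of 1811 were called, with 236 higher and 389 lower.

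**Figure D1:**
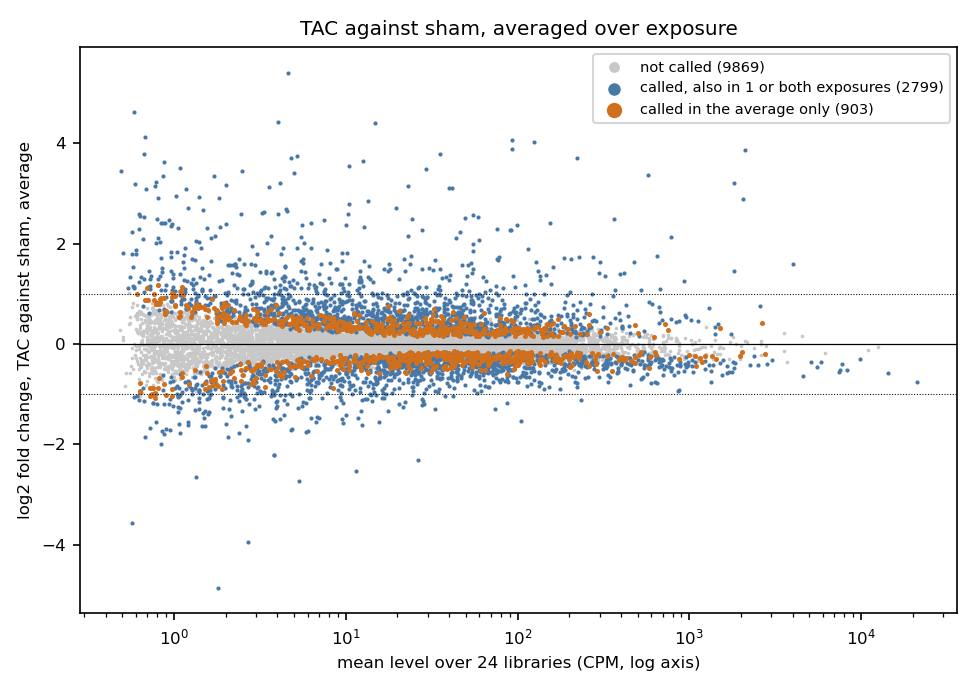
Each point is 1 of 13571 genes, with its mean level over 24 libraries in CPM (log axis) and its log2 fold change in TAC against sham, averaged over exposure. The 903 genes called in the average only (orange) form 2 narrow bands inside the 2799 genes also called in an exposure (blue), and few of them reach the dotted lines at 1 and -1.

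Separation of the groups was counted as well. For 448 genes (3.3%) every TAC library lay above every sham library, and for 247 genes (1.82%) every TAC library lay below. Of these, 75 and 110 genes differed by less than 1.5-fold. Among the 903 genes of the average only, the groups did not overlap for 3, and these were Slc2a1, Ipo4 and Eif4e2, named after their values were seen. Slc2a1, which encodes the insulin-independent glucose transporter of the plasma membrane, had 2.84, 19.9 and 22.7 CPM in sham and 23.6, 26.2 and 32.7 CPM in TAC. The log2 fold change of Slc2a1 was 0.53 ± 0.14 (adjusted p = 0.0059), against 0.54 (adjusted p = 0.073) in air and 0.52 (adjusted p = 0.0773) under benzene. Sham/Air replicate 1 had the lowest Slc2a1, and the log2 fold change without it was 0.44. Ipo4, a nuclear import receptor, rose by 0.42 ± 0.11 (adjusted p = 0.00557) and Eif4e2, a cap-binding protein related to initiation factor 4E, by 0.19 ± 0.06 (adjusted p = 0.0162).

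The surgery response was then compared between the exposures. A test of the difference, which is the interaction of surgery and exposure, called 23 genes (0.169%), and 637 had an unadjusted p under 0.05. Other fits called from 14 genes (replicate number as a block) to 189 (GC and length offsets without Sham/Air replicate 1). Of the 23, 14 were also called in the average. A further 178 genes were called in an exposure and not in the average, 76 in air and 106 under benzene, and 9 of them had a called interaction. The average thus joined responses that differed by test for few genes, some of which are given further on. A gene without a called interaction may still have differed, since the difference has a larger standard error than the average.

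**Figure D2:**
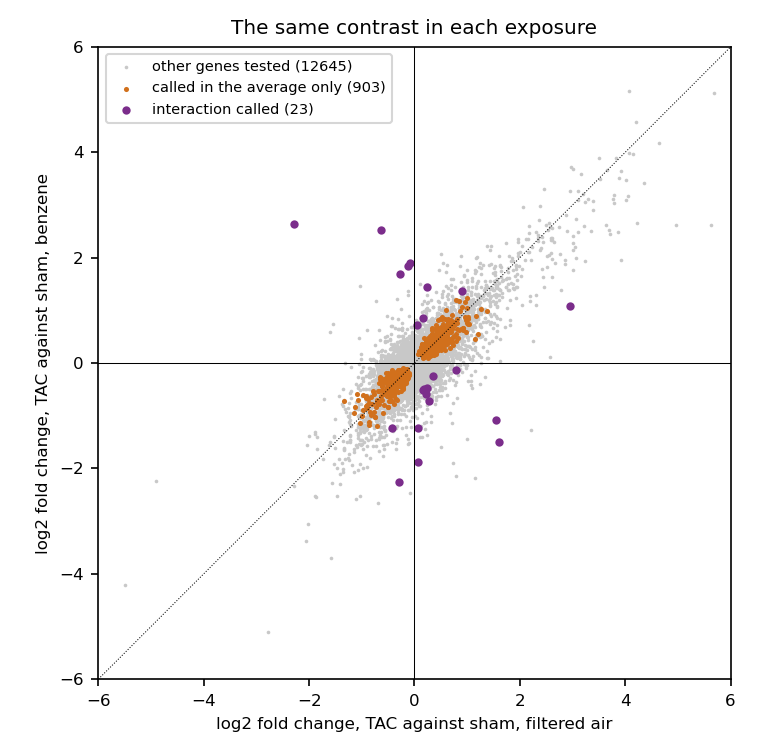
Each point is 1 gene, with its log2 fold change in TAC against sham in filtered air (horizontal) and under benzene (vertical), and the dotted line marks equal change. The 903 genes called in the average only (orange) lie in the quadrants where both exposures moved the same way, and the 23 genes with a called interaction (purple) lie away from the line. Both placements follow from how the genes were chosen.

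The largest changes, several of them in genes of extracellular matrix, are given for scale. Sprr1a, a small proline-rich protein of stressed cells, had 0, 0.145 and 0.685 CPM in sham and 6.55, 9.05 and 12.1 CPM in TAC. Its log2 fold change was 5.40 ± 0.27 (adjusted p = 2.43e-14), and the groups did not overlap. Collagen triple helix repeat gene Cthrc1 rose by 4.41 ± 0.21 (adjusted p = 5.15e-15) and latent TGF-beta binding protein gene Ltbp2 by 4.06 ± 0.14 (adjusted p = 8.56e-18). Sprr1a and Cthrc1 passed the filter on low counts through their TAC libraries alone. The separation of their groups is thus no independent support for a rise. Thrombospondins Thbs4 and Comp rose by 4.03 ± 0.10 and 3.89 ± 0.16. At the other end, the eosinophil chemokine gene Ccl11 had 6.02, 8.41 and 19.3 CPM in sham and 0.653, 1.24 and 3.28 CPM in TAC, a fall without overlap. The calcium channel subunit gene Cacng6 fell from 1.2, 1.88 and 4.11 CPM in sham to 0.0843, 0.404 and 1.03 CPM in TAC. Cyp1a1, a target of the aryl hydrocarbon receptor, had 0.959, 3.04 and 28.9 CPM in sham and 0, 0.208 and 0.935 CPM in TAC. Its log2 fold change was -3.95 ± 0.54 (adjusted p = 2.68e-06), and without Sham/Benzene replicate 1, which held the highest value, it was -3.41. Cacng6 and Cyp1a1 passed the filter on low counts through their sham libraries.

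Among genes that only the average called and whose mean reached 1 CPM, the smallest p among those higher belonged to Tcf21, a transcription factor of cardiac fibroblasts. It had 5.4, 8.72 and 11.1 CPM in sham and 7.96, 11.4 and 14.5 CPM in TAC. The log2 fold change was 0.40 ± 0.10 (adjusted p = 0.00341), and the adjusted p was 0.0583 in air and 0.0524 under benzene. The groups overlapped, with 11 of 12 TAC libraries above the sham median. Nrg1, which encodes the growth factor neuregulin, had 0.617, 1.38 and 2.71 CPM in sham and 1.15, 2.49 and 4.68 CPM in TAC. It rose by 0.78 ± 0.20 (adjusted p = 0.00437), by 0.78 in air and 0.79 under benzene. Rab4b, a small GTPase of endosome recycling, had 0.568, 9.16 and 11.5 CPM in sham and 11.5, 14.1 and 16.1 CPM in TAC and rose by 0.61 ± 0.15 (adjusted p = 0.00361). All 12 TAC libraries lay above the sham median for Rab4b, and Sham/Air replicate 1 was far below the other sham libraries.

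The other genes of that set were moderately or weakly expressed. Plpp2, a lipid phosphate phosphatase, rose by 0.65 ± 0.16 (adjusted p = 0.00378). Fam129b rose by 0.54 ± 0.14 (adjusted p = 0.00393) and Astn2, an astrotactin first studied in migrating neurons, by 0.57 ± 0.15 (adjusted p = 0.00396). Rras, a small GTPase of the Ras family, had 21.6, 43.6 and 53.8 CPM in sham and 42.5, 60.1 and 66.8 CPM in TAC and a log2 fold change of 0.41 ± 0.11 (adjusted p = 0.00478). Of these 10 genes Asphd2 alone more than doubled, at 1.03 ± 0.27 (adjusted p = 0.00495), from 0, 0.594 and 1.78 CPM in sham to 0.856, 1.42 and 2.69 CPM in TAC. Arap1, which carries a domain acting on Arf GTPases, rose by 0.44 ± 0.11 (adjusted p = 0.00457), and the microtubule-linker gene Clip2 by 0.49 ± 0.13 (adjusted p = 0.00477). Sham/Air replicate 1 was the lowest sham library for Plpp2, Fam129b, Arap1, Clip2 and Rras, and each remained called without it.

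Among the genes that fell in the average only, Clpp, Mmab and Gcat are known as genes of mitochondrial proteins. Clpp, the proteolytic subunit of the mitochondrial Clp protease, had 37.7, 57.1 and 69 CPM in sham and 36.3, 43.1 and 55.4 CPM in TAC. Clpp fell by 0.35 ± 0.09 (adjusted p = 0.00399), and no TAC library lay above the sham median although the groups overlapped. Mmab, which makes the adenosyl form of vitamin B12, fell by 0.30 ± 0.07 (adjusted p = 0.0036), and Gcat, a mitochondrial enzyme of threonine breakdown, by 0.57 ± 0.14 (adjusted p = 0.00366). Fas, the death receptor, had 15.6, 19.8 and 24.4 CPM in sham and 13.1, 15.3 and 19.8 CPM in TAC. It fell by 0.32 ± 0.08 (adjusted p = 0.00449), and with GC and length offsets the log2 fold change was -0.19. Prickle1, a component of planar cell polarity, had 26.2, 29.5 and 36.4 CPM in sham and 22.6, 25.7 and 28.1 CPM in TAC and fell by 0.25 ± 0.06 (adjusted p = 0.00341).

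The remaining genes of the falling set differed in how firmly they held. Trabd2b, a membrane metalloprotease that acts on Wnt proteins, fell by 0.22 ± 0.06 (adjusted p = 0.00473) and the lysosomal membrane gene Mfsd8 by 0.34 ± 0.09 (adjusted p = 0.00416). Abracl fell by 0.44 ± 0.11 (adjusted p = 0.00328), but the log2 fold change was -0.33 without Sham/Air replicate 1 and -0.23 with GC and length offsets. Acyl-CoA binding protein gene Dbi fell by 0.27 ± 0.07 (adjusted p = 0.00366), and lost its call with those offsets at -0.23 (adjusted p = 0.141). Tma7 fell by 0.22 ± 0.06 (adjusted p = 0.0049), and lost its call there at -0.07 (adjusted p = 0.155).

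**Figure D3:**
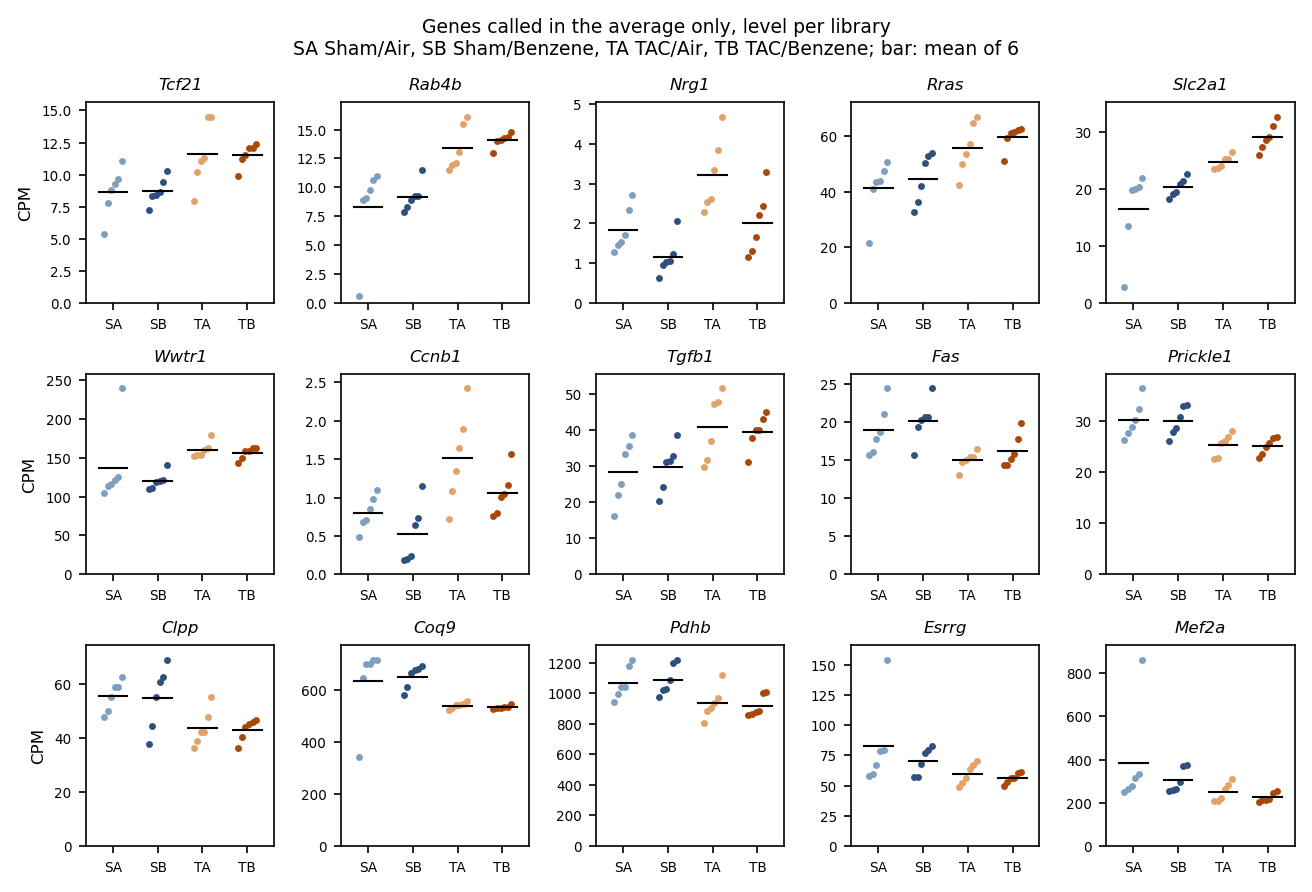
Level of 15 genes called in the average only, in CPM, with 1 point per library drawn in order of level within its group and a bar at the mean of 6 libraries. In each panel both TAC groups moved the same way from their sham group, with overlap of single libraries except for Slc2a1, and Sham/Air replicate 1 is the separate point in the panels of Rab4b, Rras, Slc2a1, Wwtr1, Coq9, Esrrg and Mef2a. The shared direction follows from how these genes were chosen.

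Genes with a mean under 1 CPM formed the other end of the table. Hephl1, a copper-containing ferroxidase, had 0, 0 and 0.105 CPM in sham and 0.362, 1.21 and 1.7 CPM in TAC. The fitted log2 fold change of 4.62 ± 0.38 (adjusted p = 3.36e-10) rests on few reads, with 4 counts in all 12 sham libraries together, and it depends on the prior count. Nrip3 had 0, 0.0964 and 0.343 CPM in sham and 0.858, 1.46 and 2.65 CPM in TAC, and the zinc-sensing receptor gene Gpr39 had 0, 0.116 and 0.488 CPM in sham and 1.01, 1.47 and 2.07 CPM in TAC. Syndig1, known from synapses, had 0, 0.173 and 0.343 CPM in sham and 0.864, 1.33 and 2.46 CPM in TAC. The groups did not overlap for these 4 genes, nor for Dio3os, which had 0, 0.283 and 0.429 CPM in sham and 0.713, 1.48 and 1.95 CPM in TAC. All of these genes passed the filter on low counts through their TAC libraries alone. Their separation from sham is thus no independent support for a rise. Dio3os is transcribed opposite to Dio3, the deiodinase that inactivates thyroid hormone, which had 0, 0.0462 and 0.429 CPM in sham and 0.34, 1.13 and 1.57 CPM in TAC (named after its values were seen). The strand setting of the counting is not given in the sources used here, so reads of the 2 genes cannot be told apart.

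Receptors and growth factors were among the weakly expressed genes that fell. Those under 1 CPM named here passed the filter on low counts through their sham libraries. Mas1, the receptor of angiotensin-(1-7), had 0.617, 1.24 and 3.41 CPM in sham and 0.0905, 0.39 and 0.679 CPM in TAC. It fell by 1.70 ± 0.25 (adjusted p = 7.25e-06), with no TAC library above the sham median. Fgf10 had 0.571, 1.12 and 5.4 CPM in sham and 0.0843, 0.309 and 0.633 CPM in TAC and fell by 1.80 ± 0.29 (adjusted p = 3.11e-05), and its highest sham value was that of Sham/Air replicate 1. Rgs7, a regulator of G protein signalling, fell by 1.72 ± 0.25 (adjusted p = 6.25e-06) and the ciliary microtubule gene Rp1 by 2.00 ± 0.26 (adjusted p = 1.49e-06). Sftpc, which encodes surfactant protein C of lung alveoli, fell by 3.57 ± 0.53 (adjusted p = 7.9e-06), and Scgb1a1 of airway club cells, with a mean of 1.8 CPM, fell by 4.85 ± 0.41 (adjusted p = 5.84e-10). For Sftpc the log2 fold change was -4.90 in air (adjusted p = 1.64e-06) and -2.24 under benzene (adjusted p = 0.0632, not called), and its mean level in Sham/Air was 1.85 CPM, against 0.322 CPM for Sham/Benzene. For Scgb1a1 the values were -5.49 in air (adjusted p = 3.33e-10) and -4.21 under benzene (adjusted p = 0.000131), with sham means of 6.32 and 0.732 CPM in the same order. The interaction was called for neither gene. Summed over the tested lung epithelium markers, which are these 2 of 12 listed, the level ran from 0.274 to 9.83 CPM in sham and from 0 to 0.452 CPM in TAC. Sftpc passed the filter on low counts through the Sham/Air libraries alone, and Scgb1a1 also owed its level mostly to them. The sum thus covers only markers kept because they were high in sham. With Sham/Air replicate 1 left out, 3 of the markers were tested and 1 of them was higher. The part of lung RNA in these values was not tested.

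**Figure D4:**
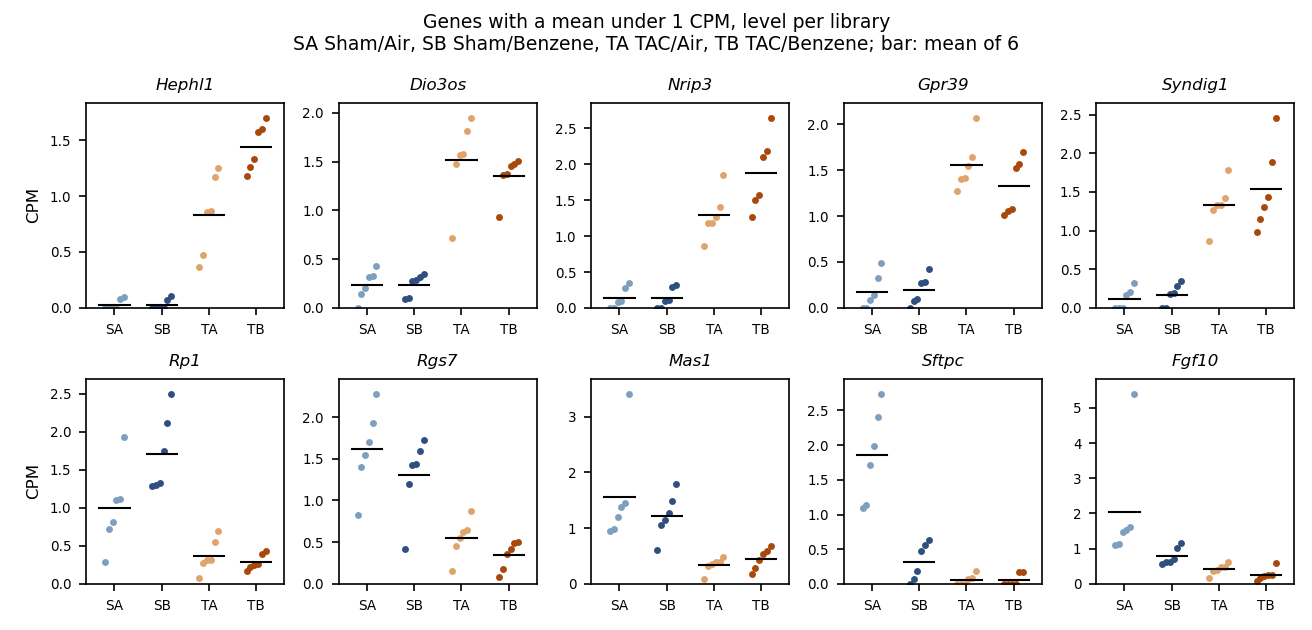
Level of the 5 higher (upper row) and 5 lower (lower row) genes with the smallest p among called genes with a mean under 1 CPM, in CPM, with 1 point per library and a bar at the mean of 6. The TAC libraries lie above all sham libraries in the upper row and mostly below them in the lower row, and the sham libraries spread widely for Sftpc. Genes of the upper row passed the filter on low counts through TAC libraries, and those of the lower row through sham libraries.

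Most tested genes of mitochondrial metabolism were lower, and none of those in the lists for the tricarboxylic acid cycle, fatty acid oxidation and the respiratory chain was called higher. Of 21 tested genes of the tricarboxylic acid cycle, which oxidizes acetyl-CoA, 19 were lower and none higher, with a median log2 fold change of -0.33 against -0.01 over all genes tested. In filtered air 15 and under benzene 11 of them were lower. Those called in the average only included Cs, Mdh2 and Pdhb, named after their values were seen. Pdhb, a subunit of pyruvate dehydrogenase, had 946, 1040 and 1220 CPM in sham and 809, 894 and 1120 CPM in TAC and fell by 0.22 ± 0.06 (adjusted p = 0.00853). Citrate synthase gene Cs and malate dehydrogenase gene Mdh2 stood at -0.30 (adjusted p = 0.0396) and -0.23 (adjusted p = 0.044), and they lost their calls in 15 and 18 of the 24 fits that left out 1 library. Without Sham/Air replicate 1, which had the lowest level of both, the log2 fold changes were -0.38 and -0.29. Suclg2, a subunit of succinyl-CoA ligase, had 249, 293 and 370 CPM in sham and 208, 214 and 232 CPM in TAC, a fall of 0.43 ± 0.05 (adjusted p = 2.26e-07) without any overlap. Sdha, shared by the cycle and the respiratory chain, had 1800, 2010 and 2440 CPM in sham and 1270, 1370 and 1500 CPM in TAC, also without overlap.

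Fatty acid oxidation and the respiratory chain followed the same direction. Of 32 tested oxidation genes 22 were lower and none higher, with a median of -0.43. Acaa2, the thiolase of the last step, fell from 952, 1140 and 1260 CPM in sham to 554, 576 and 690 CPM in TAC, and the acyl-CoA thioesterase gene Acot1 fell from 9.91, 17.8 and 20.7 CPM in sham to 5.15, 6.32 and 7.9 CPM in TAC. Neither overlapped between surgeries. Of 45 respiratory chain subunits 28 were lower and none higher, at a median of -0.35, and 40 were lower without Sham/Air replicate 1. The core complex I subunit gene Ndufs1 had 988, 1120 and 1350 CPM in sham and 759, 816 and 907 CPM in TAC and fell by 0.44 ± 0.05 (adjusted p = 1.89e-07). Of the subunits called in the average only, Ndufb5 and Cox5b kept their calls whichever library was left out, with log2 fold changes of -0.21 and -0.48. For Cox5b the fall was seen in replicates 4 to 6 of both exposures, with 677 to 916 CPM in sham and 327 to 501 CPM in TAC. Replicates 1 to 3 had 468 to 659 CPM in sham and 455 to 694 CPM in TAC. Leaving out 1 library at a time cannot show such a split. Across 14 tested cardiomyocyte markers, 7 were lower and none higher, and their summed level ran from 91300 to 124000 CPM in sham and from 72800 to 92600 CPM in TAC. The part of that shift in the mitochondrial lists was not tested.

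Lists of genes that build and maintain mitochondria had smaller medians. Of 52 mitochondrial ribosome genes 15 were lower and none higher (median -0.16), and 26 were lower without Sham/Air replicate 1. Mrpl39 of the large subunit fell by 0.47 ± 0.07 (adjusted p = 4.51e-06) and Mrpl45 by 0.34 ± 0.05 (adjusted p = 2.14e-05). Of 42 genes of protein import, cristae and dynamics 14 were lower and Chchd6 was higher, with 22 lower and 2 higher without that library. Timm44, which tethers the import motor to the inner membrane, had 117, 120 and 128 CPM in sham and 88, 99.6 and 110 CPM in TAC. It fell by 0.29 ± 0.04 (adjusted p = 1.66e-05), less than 1.5-fold, yet every TAC library lay below every sham library. Oma1, a stress-activated protease of the inner membrane, fell by 0.42 ± 0.06 (adjusted p = 2.6e-06), also without overlap.

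Of 41 tested genes of coenzyme Q, iron-sulfur and heme synthesis, 12 were lower and Coq8b was higher, and 6 of these 13 calls came from the average only. The median log2 fold change was -0.18, and 24 genes were lower without Sham/Air replicate 1. Pdss2, which makes the isoprenoid tail of coenzyme Q, had 33.6, 37.1 and 44.6 CPM in sham and 25.3, 27.3 and 29.9 CPM in TAC. It fell by 0.45 ± 0.05 (adjusted p = 9.15e-08) without overlap, and the hydroxylase gene Coq7 fell by 0.39 ± 0.06 (adjusted p = 1.26e-05). Coq9, a lipid-binding partner of Coq7, fell by 0.26 ± 0.08 (adjusted p = 0.0182), and Uros of heme synthesis by 0.19 ± 0.05 (adjusted p = 0.00927), both in the average only. The methyltransferase gene Coq3 fell by 0.17 ± 0.05 (adjusted p = 0.0134), and with GC and length offsets lost its call at -0.09 (adjusted p = 0.345).

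Branched-chain amino acid breakdown had 16 of 23 tested genes lower and Bcat1 higher, with a median of -0.39. Ppm1k, the phosphatase that activates the branched-chain ketoacid dehydrogenase, had 138, 163 and 203 CPM in sham and 89, 95.9 and 112 CPM in TAC. It fell by 0.76 ± 0.07 (adjusted p = 2.88e-09), and Bckdhb, a subunit of that dehydrogenase, by 0.72 ± 0.08 (adjusted p = 3.86e-08). Aminoacyl-tRNA synthetases, which charge tRNAs for translation, had calls in both directions. Of 37 tested, 8 were lower, and 6 of these (Yars2, Fars2, Cars2, Nars2, Hars2 and Iars2) are known as the mitochondrial enzymes. The other two were Farsb and Kars. The 4 that were higher (Aars, Sars, Yars and Nars) are known as cytosolic enzymes. Cars2 had 31.8, 49.5 and 54.9 CPM in sham and 36.4, 39.5 and 43.1 CPM in TAC and fell by 0.26 ± 0.07 (adjusted p = 0.00546), while Yars had 17.3, 36.7 and 40.5 CPM in sham and 38.5, 43 and 48.4 CPM in TAC and rose by 0.27 ± 0.09 (adjusted p = 0.0193), and both passed in the average only. Hars2 fell by 0.24 ± 0.08 (adjusted p = 0.0226) and Fars2 by 0.31 ± 0.06 (adjusted p = 0.000544).

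Other metabolic lists moved both ways. Of 37 glycolysis and glycogen genes 10 were higher and 9 lower. Pfkp, the platelet isoform of phosphofructokinase, had 49.8, 60.7 and 69.6 CPM in sham and 111, 134 and 159 CPM in TAC, and rose by 1.13 ± 0.05 (adjusted p = 1.35e-15) without overlap. Phkg1, the muscle catalytic subunit of phosphorylase kinase, fell from 17.9, 23.4 and 32.8 CPM in sham to 4.79, 7.42 and 11.3 CPM in TAC. Among 30 genes of serine, one-carbon, proline and polyamine synthesis 8 were higher and 8 lower. Aldh1l2, a mitochondrial folate dehydrogenase, had 10.8, 11.9 and 15.6 CPM in sham and 3.82, 4.97 and 6.79 CPM in TAC, and the alanine aminotransferase gene Gpt2 fell by 0.72 ± 0.06 (adjusted p = 1.47e-09). Purine and pyrimidine synthesis had 6 of 32 higher and 4 lower (18.8% and 12.5%), near the shares of 14.0% and 13.3% over all genes. The uridine-cytidine kinase gene Uck2 had 16.2, 24 and 35.8 CPM in sham and 50.9, 70 and 95.7 CPM in TAC. Thymidylate synthase gene Tyms rose by 0.80 ± 0.13 (adjusted p = 1.66e-05). Of 36 cholesterol and fatty acid synthesis genes 7 were higher and 2 lower, and squalene synthase gene Fdft1 fell by 0.64 ± 0.07 (adjusted p = 1.39e-07). Without Sham/Air replicate 1, 11 of that list were higher and 4 lower, and 8 purine and pyrimidine genes were higher and 7 lower.

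**Figure D5:**
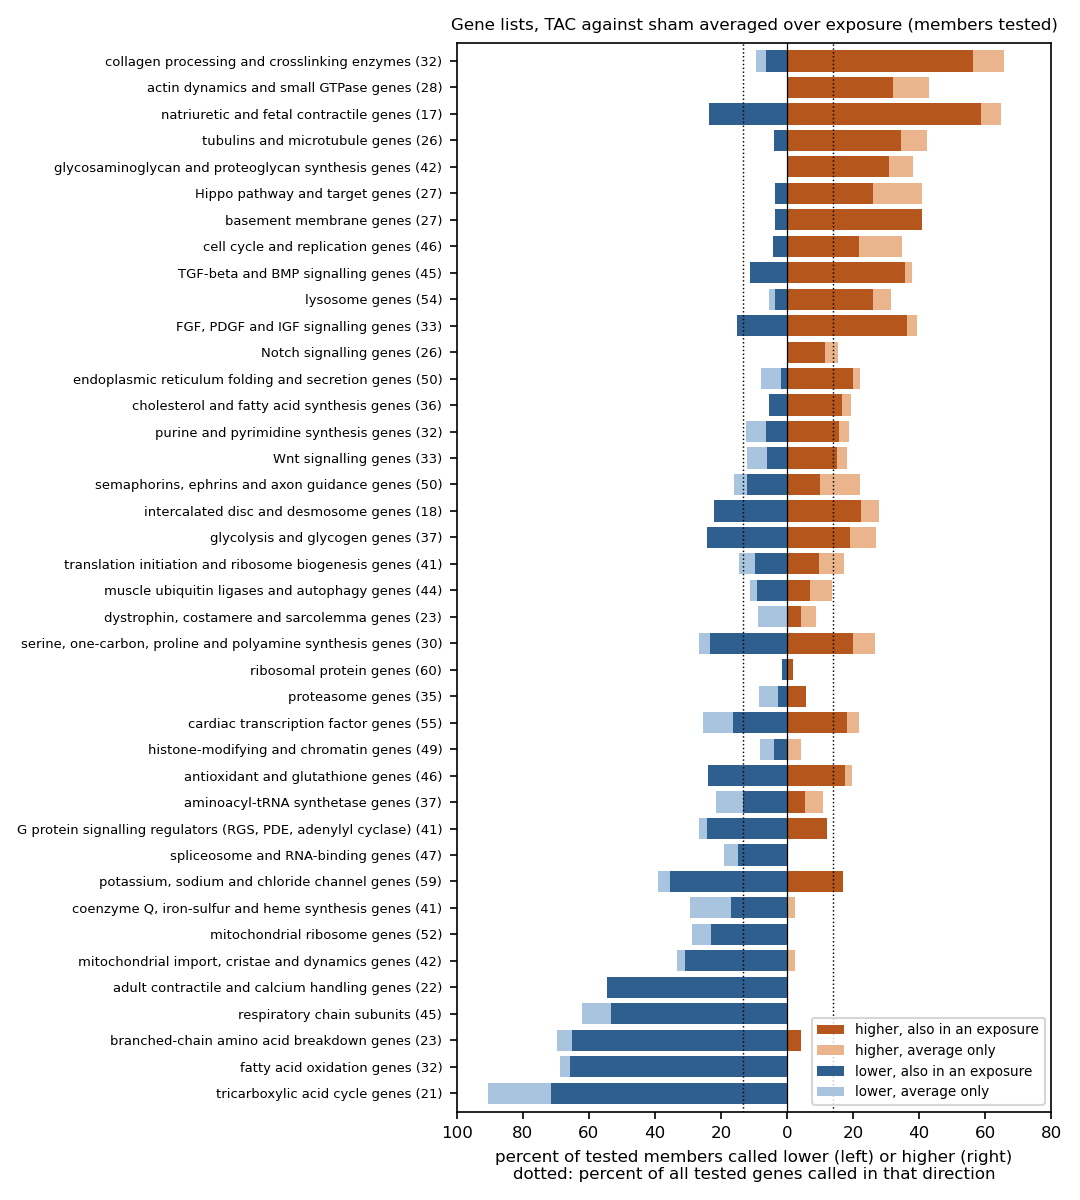
Bars give the percent of tested members of 40 gene lists that were called lower (left) and higher (right) in TAC, with the calls of the average only in the lighter shade and the number tested in parentheses. The dotted lines mark 13.3% lower and 14.0% higher over all genes, and the lists run from collagen processing enzymes at the top to the tricarboxylic acid cycle at the bottom.

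Most tested enzymes that finish collagen were higher. Of 32 tested collagen processing and crosslinking enzymes 21 were higher and 3 (Tll2, Adamts3 and Adamts14) lower, with a median of 0.45. Lox, the lysyl oxidase that crosslinks collagen, had 5.48, 7.89 and 18.8 CPM in sham and 55.7, 71.3 and 87.2 CPM in TAC, and Loxl3 of the same family had 2.84, 7.29 and 9.52 CPM in sham and 36.2, 40.4 and 47.1 CPM in TAC. Neither overlapped. Plod3, Serpinh1 and Creb3l1 were higher in the average only. Of 42 glycosaminoglycan and proteoglycan synthesis genes 16 were higher and none lower (median 0.21). Sulf1, which trims sulfate from heparan sulfate outside the cell, had 30.2, 37 and 59.1 CPM in sham and 66.5, 74.7 and 86.7 CPM in TAC. Dse, which makes dermatan sulfate, had 11.2, 12.9 and 14.4 CPM in sham and 17.7, 20.1 and 27.1 CPM in TAC and rose by 0.68 ± 0.07 (adjusted p = 3.76e-08) without overlap.

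Basement membrane genes had 11 of 27 higher and Lamb3 lower (median 0.25), with 12 higher and 2 lower without Sham/Air replicate 1. Sparc, a collagen-binding matrix glycoprotein, had 360, 429 and 525 CPM in sham and 805, 928 and 996 CPM in TAC, and Frem1 had 0.0806, 0.389 and 0.96 CPM in sham and 3.23, 3.9 and 7.72 CPM in TAC. Of 54 lysosome genes 17 were higher and 3 lower, with 23 higher and 7 lower without Sham/Air replicate 1. The collagen-degrading protease gene Ctsk had 2.56, 7.07 and 8.65 CPM in sham and 12.6, 17 and 23.5 CPM in TAC, and Arsb, which degrades dermatan and chondroitin sulfate, rose by 0.56 ± 0.07 (adjusted p = 4.66e-07). Of 16 tested fibroblast markers 10 were higher and none lower, and their summed level ran from 3770 to 4440 CPM in sham and from 6250 to 7140 CPM in TAC. Col1a2 rose by 1.42 ± 0.05 (adjusted p = 1.24e-17) and the microfibril gene Mfap5 by 2.36 ± 0.09 (adjusted p = 2.35e-17). The part of the fibroblast marker level in the matrix and lysosome lists was not tested.

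Called genes of the cytoskeleton were mostly higher. Of 28 tested actin dynamics and small GTPase genes 12 were higher and none lower, with a median of 0.23, and 20 were higher without Sham/Air replicate 1. The actin-capping gene Capg had 9.94, 16.1 and 21.3 CPM in sham and 24, 29.4 and 38.7 CPM in TAC, without overlap. Tagln2 rose by 0.57 ± 0.10 (adjusted p = 0.000113), and the GTPase genes Rhoc and Rac2 rose in the average only, by 0.61 ± 0.17 (adjusted p = 0.00918) and 0.46 ± 0.13 (adjusted p = 0.00846). Rhoc had 17.6 to 49.5 CPM in sham and 81.2 to 97.4 CPM in TAC in replicates 1 to 3 of both exposures. In replicates 4 to 6 the surgeries overlapped for Rhoc, with 56.6 to 73.9 CPM in sham and 45.3 to 84.5 CPM in TAC. Of 26 tubulins and microtubule genes 11 were higher and Tuba4a was lower, with 15 higher and 2 lower without that library. Map1a had 6.25, 10.1 and 12.3 CPM in sham and 14.5, 18.6 and 24.4 CPM in TAC, and the alpha-tubulin gene Tuba1a rose by 0.71 ± 0.10 (adjusted p = 2.97e-06). Intercalated disc and desmosome genes had 5 of 18 higher and 4 lower, with the intermediate filament gene Des at 989, 2020 and 2270 CPM in sham and 2150, 3380 and 3850 CPM in TAC. Xirp1, which binds actin at the disc, rose by 0.70 ± 0.11 (adjusted p = 1.79e-05). Of 23 dystrophin, costamere and sarcolemma genes 2 were higher and 2 lower, so both shares were below those of all genes, and 4 were higher without Sham/Air replicate 1. Talin gene Tln1 rose by 0.35 ± 0.10 (adjusted p = 0.00714) in the average only, and Lmcd1 by 0.39 ± 0.07 (adjusted p = 0.000121).

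Genes of growth factor signalling were called higher more often than lower. Of 45 TGF-beta and BMP genes 17 were higher and 5 lower (median 0.21). The ligand gene Tgfb3 had 18.2, 21.4 and 27.3 CPM in sham and 45.6, 55.7 and 62.1 CPM in TAC, without overlap. Tgfb1, the most studied ligand of the family, had 16.2, 31.4 and 38.7 CPM in sham and 29.6, 40.1 and 51.5 CPM in TAC. It rose by 0.45 ± 0.13 (adjusted p = 0.00899) and was called in the average only, with 10 of 12 TAC libraries above the sham median. The rise was seen in replicates 1 to 3 of both exposures, with 16.2 to 31.2 CPM in sham and 37.8 to 51.5 CPM in TAC. Replicates 4 to 6 overlapped, with 31.5 to 38.7 CPM in sham and 29.6 to 43.1 CPM in TAC. Fstl1, a secreted follistatin-like protein, rose by 1.63 ± 0.06 (adjusted p = 1.75e-17). Of 33 FGF, PDGF and IGF genes 13 were higher and 5 lower, and Igf-binding protein gene Igfbp7 had 168, 228 and 286 CPM in sham and 464, 632 and 714 CPM in TAC. The PDGF receptor-like gene Pdgfrl rose by 1.82 ± 0.09 (adjusted p = 1.31e-14).

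Wnt and Notch genes were called higher in shares near that of all genes. Of 33 Wnt genes 6 were higher and 4 lower (18.2% and 12.1%, against 14.0% and 13.3% over all genes). The intracellular inhibitor gene Nkd2 had 1.79, 2.89 and 4.26 CPM in sham and 13.9, 17.7 and 19.8 CPM in TAC. The receptor gene Fzd1 rose by 0.92 ± 0.08 (adjusted p = 2.88e-09). Of 26 Notch genes 4 were higher and none lower, near the background of 14.0% higher, and 6 were higher and 1 lower without Sham/Air replicate 1. The Notch target genes Hes1 and Heyl rose by 0.39 ± 0.06 (adjusted p = 3.96e-05) and 0.59 ± 0.14 (adjusted p = 0.00165). Among 50 tested semaphorin, ephrin and axon guidance genes 11 were higher and 8 lower, and 8 of these 19 calls came from the average only. Of these, the guidance receptor gene Robo1 had 2.6, 4.24 and 9.94 CPM in sham and 3.93, 6.4 and 7.78 CPM in TAC and rose by 0.54 ± 0.15 (adjusted p = 0.00762), and the semaphorin gene Sema3b rose by 0.39 ± 0.12 (adjusted p = 0.0159) while Sema4a fell by 0.43 ± 0.13 (adjusted p = 0.0181). The receptor gene Epha4 had 54.8, 61.5 and 73.9 CPM in sham and 32.3, 35.3 and 42 CPM in TAC, a fall without overlap, and the ligand gene Sema3f rose by 0.95 ± 0.12 (adjusted p = 9e-07). G protein signalling regulators had 5 of 41 higher and 11 lower, with 8 of 42 higher and 13 lower without Sham/Air replicate 1. The adenylyl cyclase gene Adcy7 had 19.1, 22.2 and 30 CPM in sham and 50.5, 57.2 and 66.1 CPM in TAC. Rgs2, which limits signalling through Gq-coupled receptors, fell from 25.1, 35.2 and 58.7 CPM in sham to 15.6, 19.5 and 23.2 CPM in TAC.

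The Hippo pathway restrains the coactivators YAP and TAZ, which bind TEAD factors at DNA and drive genes such as Ccn1 and Ccn2. Of 27 tested pathway and target genes 11 were higher and Amotl2 was lower, with a median of 0.13. Target gene Ccn2 had 93.1, 104 and 150 CPM in sham and 579, 615 and 674 CPM in TAC, and Ccn1 had 42.8, 60.5 and 69.5 CPM in sham and 84.7, 109 and 122 CPM in TAC. Neither overlapped. Vgll3, a cofactor of TEAD, rose by 1.23 ± 0.11 (adjusted p = 9.47e-10) and also did not overlap. The 4 called in the average only were Yap1, Wwtr1, Tead2 and Mob1b. Wwtr1, which encodes TAZ, had 105, 120 and 239 CPM in sham and 143, 159 and 179 CPM in TAC, where the highest sham value belonged to Sham/Air replicate 1. It rose by 0.31 ± 0.10 (adjusted p = 0.0195), and by 0.42 without that library. Yap1 had 124, 132 and 154 CPM in sham and 138, 148 and 153 CPM in TAC. Its log2 fold change was 0.13 ± 0.05 (adjusted p = 0.0365), the call was lost in 18 of the 24 fits that left out 1 library, and all 12 TAC libraries lay above the sham median.

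TEAD factors are known to bind the MCAT motif, CATTCC, and RefSeq promoters (GRCm38.p6, from 250 bases before to 50 after the start) were searched for it on both strands. It was present in 4817 of 32851 promoters (14.7%), in 12.5% of those of genes tested, in 15.3% of those of genes called higher and in 13.5% of those of genes called lower. Promoters were given for 9 of the 11 higher Hippo genes, and 7 of their 10 promoters held the motif. They belonged to Ccn1, Vgll3, Vgll4, Wwc2, Wwtr1 and Yap1, and 2 of the 7 are overlapping promoters of Wwtr1 that hold the same match. Promoters of the other tested Hippo genes were not searched as a set, so a link of the motif with the rise was not tested. The 250 bases before the start of 4 of these genes are shown, 5′ to 3′ on the strand of the gene, because they place the motif beside the 2 coactivator genes and 2 of the higher genes above. Capitals mark the motif, which reads GGAATG on the opposite strand. A match is a description of these letters and no evidence of binding. The stretches are chr3:145649986-145650235 (minus strand) for Ccn1, chr16:65814939-65815188 (plus strand) for Vgll3, chr3:57575911-57576160 (minus strand) for Wwtr1, chr9:8004597-8004846 (minus strand) for Yap1.
Ccn1: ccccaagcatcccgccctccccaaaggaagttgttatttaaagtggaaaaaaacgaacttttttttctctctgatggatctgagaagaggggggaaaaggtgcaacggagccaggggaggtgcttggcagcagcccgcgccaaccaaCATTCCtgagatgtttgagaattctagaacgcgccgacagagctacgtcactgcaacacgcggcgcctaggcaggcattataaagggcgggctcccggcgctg
Vgll3: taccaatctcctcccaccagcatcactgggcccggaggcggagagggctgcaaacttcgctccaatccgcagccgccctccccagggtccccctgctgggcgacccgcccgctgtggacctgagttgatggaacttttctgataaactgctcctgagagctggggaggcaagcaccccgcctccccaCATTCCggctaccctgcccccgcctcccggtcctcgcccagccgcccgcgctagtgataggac
Wwtr1: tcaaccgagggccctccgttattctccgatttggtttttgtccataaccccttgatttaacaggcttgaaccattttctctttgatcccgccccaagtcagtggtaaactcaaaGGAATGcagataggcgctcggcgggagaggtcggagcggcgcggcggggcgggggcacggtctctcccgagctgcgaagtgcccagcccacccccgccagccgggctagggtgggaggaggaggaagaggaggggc
Yap1: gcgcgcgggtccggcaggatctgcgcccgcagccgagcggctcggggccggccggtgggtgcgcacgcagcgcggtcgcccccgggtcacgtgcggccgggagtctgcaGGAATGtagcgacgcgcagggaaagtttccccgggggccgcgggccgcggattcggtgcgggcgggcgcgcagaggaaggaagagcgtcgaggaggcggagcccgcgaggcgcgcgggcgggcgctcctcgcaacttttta

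Other motifs were searched over the same windows, each by itself and on both strands, so that matches of different motifs may share letters. The AP-1 motif TGANTCA was in 7.06% of promoters of genes called higher, 5.48% of those lower and 5.2% of those tested, against 7.81% of all promoters. AAGGTCA, the core of the site of estrogen-related receptors, was in 2.81%, 4.23%, 3.23% and 4.72% in the same order, and in 1 of 22 promoters of the lower tricarboxylic acid cycle genes. The E2F motif TTCCCGC was in 6.58%, 8.36%, 7.95% and 4.6%. The CRE motif TGACGTNA was in 4.14%, 2.93%, 4.55% and 2.93%, and in 5 of the 22 promoters of the lower tricarboxylic acid cycle genes (22.7%), which belonged to Mdh2, Ogdh and Pdhb. The E-box CACGTG was in 9.61%, 8.19%, 9.78% and 7.15%, and in 4 of the 10 promoters of the higher Hippo genes (40.0%). The CArG box was in 1.7%, 1.14%, 1.3% and 1.63%, and the MEF2 box in 1.49%, 3.09%, 1.93% and 3.19%. The last 2 are named only, since their letters vary. CATTCC was in 14.5% of the promoters of genes called in the average only. For the Hippo and tricarboxylic acid cycle lists, only these called genes were searched as a set.

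Ion channels and contractile genes fell more often than they rose. Of 59 potassium, sodium and chloride channel genes 23 were lower and 10 higher (median -0.20). Without Sham/Air replicate 1, 32 of 61 were lower and 12 higher. Kcnj5, a subunit of the acetylcholine-activated potassium channel, had 87.2, 106 and 121 CPM in sham and 59.7, 62.4 and 68.8 CPM in TAC without overlap, and the chloride channel gene Clcn1 fell by 1.76 ± 0.13 (adjusted p = 5.99e-11). Of 22 adult contractile and calcium handling genes 12 were lower and none higher (median -0.37). Leaving out Sham/Air replicate 1, 14 were lower and 1 higher (median -0.29). Calcium pump gene Atp2a2 fell from 14400, 16800 and 23300 CPM in sham to 10800, 11400 and 12000 CPM in TAC, and cardiac troponin I gene Tnni3 fell by 0.63 ± 0.07 (adjusted p = 2.54e-07). Of 17 tested natriuretic and fetal contractile genes 11 were higher and 4 lower, the latter Tnnt1, Myl7, Myh7b and Myl4. Myl7 and Myl4 are known as atrial light chains, and of 9 tested atrial markers 3 were higher and 4 lower. Dkk3, 1 of those higher, had 16.1, 19.8 and 53.3 CPM in sham and 44.2, 54.8 and 68.6 CPM in TAC.

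Transcription factor genes moved in both directions. Of 55 tested cardiac factors 12 were higher and 14 lower, and 7 of these calls came from the average only. Meox1, a homeobox gene of activated fibroblasts, had 9.66, 16.5 and 21.9 CPM in sham and 61.5, 71.9 and 78.5 CPM in TAC, and Sox9 had 2.84, 4.24 and 7.61 CPM in sham and 9.82, 11.8 and 12.4 CPM in TAC. Neither overlapped. Among those lower in the average only, Mef2a had 250, 286 and 862 CPM in sham and 202, 220 and 310 CPM in TAC. It fell by 0.53 ± 0.16 (adjusted p = 0.0128), and by 0.32 without Sham/Air replicate 1, the highest library. Esrrg, an estrogen-related receptor of oxidative metabolism, fell by 0.39 ± 0.12 (adjusted p = 0.0191), and by 0.26 without that library. For both genes the surgeries were apart in replicates 1 to 3 of both exposures and overlapped in replicates 4 to 6. In the latter, Mef2a had 250 to 276 CPM in sham and 218 to 310 CPM in TAC. Esrrg had 56.9 to 67.6 CPM in sham and 49.8 to 70.1 CPM in TAC there. Ppargc1b, a coactivator of mitochondrial genes, had 51.7, 63.8 and 75.5 CPM in sham and 45.6, 55.2 and 60.9 CPM in TAC and fell by 0.20 ± 0.07 (adjusted p = 0.0293). With GC and length offsets and without Sham/Air replicate 1 its call was lost. The others of the average only were Gata6, Rxra, Mrtfa and Tcf21.

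Cell cycle genes that were called were mostly higher. Of 46 tested, 16 were higher and 2 (Cenpf and Cdkn1c) lower, with a median of 0.28, and 6 of those higher came from the average only. Ccnb1, which encodes the mitotic cyclin B1, had 0.19, 0.694 and 1.15 CPM in sham and 0.724, 1.13 and 2.42 CPM in TAC. It rose by 1.02 ± 0.26 (adjusted p = 0.00368), by 0.99 in air and 1.04 under benzene, with all 12 TAC libraries above the sham median. Ccna2 rose by 0.46 ± 0.14 (adjusted p = 0.0138) and the S-phase factor gene E2f1 by 0.73 ± 0.22 (adjusted p = 0.0141). Ccnb2, Ccnd1 and Cenpe were the others of the average only. The inhibitor gene Cdkn1a had 8.81, 20.5 and 30.1 CPM in sham and 22.6, 39.8 and 54.9 CPM in TAC. Cenpf went the opposite way, with 22.3, 33.6 and 145 CPM in sham and 6.96, 7.96 and 12.3 CPM in TAC. Without Sham/Air replicate 1, 19 of 48 tested genes of the list were higher and 5 lower. The fall of Cenpf by 2.31 ± 0.25 (adjusted p = 4.43e-08) was without overlap, and the log2 fold change was -1.98 without that library, which held the highest value.

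Among genes of protein synthesis and turnover, the ribosomal protein and proteasome lists had smaller shares called than all genes (14.0% higher and 13.3% lower). Of 60 tested ribosomal protein genes 1 was higher and 1 lower, and they are paralogs that take the same place in the ribosome. Rpl3, the general form, had 121, 244 and 312 CPM in sham and 300, 325 and 383 CPM in TAC. It rose by 0.45 ± 0.09 (adjusted p = 0.000376). Rpl3l, the form of heart and skeletal muscle, had 220, 281 and 337 CPM in sham and 137, 171 and 189 CPM in TAC. It fell by 0.78 ± 0.08 (adjusted p = 5.07e-08) without overlap. Without Sham/Air replicate 1, 4 genes of the list were lower. The median of the list was -0.05, and reads shared by near-identical copies could be split between such genes in the counting. Of 41 translation initiation and ribosome biogenesis genes 7 were higher and 6 lower (17.1% and 14.6%), near the shares over all genes. Rrp12 had 11.4, 24.6 and 28.1 CPM in sham and 29.8, 41.1 and 54.3 CPM in TAC, without overlap, while Polr1a, the largest subunit of RNA polymerase I, fell by 0.31 ± 0.06 (adjusted p = 0.000462).

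Of 50 endoplasmic reticulum genes 11 were higher and 4 lower (22.0% and 8.0%). Spcs3, a subunit of the signal peptidase, had 83.1, 98 and 119 CPM in sham and 128, 157 and 194 CPM in TAC, and the retrieval receptor gene Kdelr3 rose by 0.88 ± 0.11 (adjusted p = 6.96e-07). Proteasome genes had 2 of 35 higher and 3 lower. The activator subunit gene Psme1 fell by 0.56 ± 0.06 (adjusted p = 9.67e-08), and Psmd11 of the lid rose by 0.20 ± 0.05 (adjusted p = 0.00236). Of 44 muscle ubiquitin ligase and autophagy genes 6 were higher and 5 lower (13.6% and 11.4%), near the shares over all genes. Bnip3, a mitophagy receptor, had 210, 227 and 256 CPM in sham and 260, 316 and 394 CPM in TAC, and the muscle ligase subunit gene Fbxo40 had 326, 356 and 381 CPM in sham and 405, 454 and 504 CPM in TAC. Both rose by less than 1.5-fold without overlap. Without Sham/Air replicate 1, 7 genes of that list were higher and 10 lower, and 3 proteasome genes were higher and 5 lower. Of 46 antioxidant genes 9 were higher and 11 lower, or 11 higher and 17 lower without that library. The secreted peroxidase gene Gpx3 stood at 0.96 ± 0.06 (adjusted p = 9.08e-13) and the mitochondrial and peroxisomal transferase gene Gstk1 at -0.75 ± 0.06 (adjusted p = 8.12e-11).

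Chromatin genes gave few calls in the main fit. Of 49 histone-modifying and chromatin genes 2 were higher and 4 lower, below the background in both directions. Without Sham/Air replicate 1, 13 were lower, in a fit that called 2451 of all 13665 genes lower. Hdac4, a class II deacetylase, had 32.4, 43.8 and 49.5 CPM in sham and 29.9, 32.9 and 39.8 CPM in TAC and fell by 0.39 ± 0.07 (adjusted p = 8.44e-05). Hdac11 fell by 0.53 ± 0.16 (adjusted p = 0.0154). Of 47 spliceosome and RNA-binding genes 9 were lower and none higher, and without Sham/Air replicate 1 these numbers were 11 and 2. Rbfox1, a splicing regulator of muscle and neurons, had 47.3, 53.2 and 96.9 CPM in sham and 23.3, 26.8 and 32 CPM in TAC without overlap. Khdrbs3 fell by 0.64 ± 0.11 (adjusted p = 7.03e-05).

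Markers of other cell types were described in the same way. Of 15 endothelial markers Cldn5 was higher and none was lower, and the median was -0.01. Cldn5, a tight junction gene, had 0.852, 16.2 and 23.2 CPM in sham and 12.7, 28.4 and 31.1 CPM in TAC, with Sham/Air replicate 1 lowest, and was called in the average only with a log2 fold change of 0.65 ± 0.21 (adjusted p = 0.019). Of 21 tested macrophage markers 10 were higher and 5 lower. Spp1, which encodes osteopontin, had 1.63, 3.43 and 4.73 CPM in sham and 10.3, 16.7 and 23 CPM in TAC, and the chemokine receptor gene Cx3cr1 had 2.64, 4.01 and 5.11 CPM in sham and 6.03, 9.7 and 14.4 CPM in TAC. The 5 lower (Cd163, Lyve1, Folr2, Timd4 and Mertk) are known as genes of resident macrophages. Summed macrophage markers ran from 765 to 898 CPM in sham and from 772 to 992 CPM in TAC. Smooth muscle and pericyte markers had 4 of 15 higher (Des, Mcam, Cspg4 and Pdgfrb) and 3 lower (Abcc9, Myh11 and Mylk). Their median was 0. Abcc9, a potassium channel subunit of pericytes that heart muscle also uses, fell by 0.82 ± 0.12 (adjusted p = 4.76e-06).

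Nerve and Schwann cell markers had 6 of 13 tested genes lower and 2 higher. Dbh, which makes noradrenaline in sympathetic nerves, had 2.31, 4.88 and 5.52 CPM in sham and 0.943, 2.03 and 2.83 CPM in TAC and fell by 1.23 ± 0.17 (adjusted p = 3.41e-06). The 2 higher, Pmp22 and Cryab, are also expressed by other cells of the heart. Of 8 tested adipocyte markers 3 were lower in the average, none in air alone and 2 under benzene alone. Cfd fell by 0.83 ± 0.26 (adjusted p = 0.0179), with -0.13 in air (adjusted p = 0.843) and -1.53 under benzene (adjusted p = 0.00496), and its interaction was not called (adjusted p = 0.767). Among 10 mast cell, dendritic cell and platelet markers Mcpt4 was lower, by 1.03 ± 0.22 (adjusted p = 0.000739), and 2 were lower without Sham/Air replicate 1. Of 6 tested skeletal muscle markers 1 was higher and 3 lower, the first being Acta1, which the loaded ventricle also uses, and Tnni2 fell by 1.17 ± 0.23 (adjusted p = 0.000293). Of 3 tested mesothelial markers Krt18 rose by 2.39 ± 0.22 (adjusted p = 4.29e-09) and C3 fell by 0.24 ± 0.06 (adjusted p = 0.00279). Of 4 tested lymphocyte markers Ms4a1 was higher at 0.86 ± 0.32 (adjusted p = 0.047), a call lost in 17 of the 24 fits that left out 1 library. Neither of 2 tested red blood cell markers was called, but 1 was lower without Sham/Air replicate 1.

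The interaction was called for few genes, and for these the average joined unlike responses. Estimates could also differ without such a call, as for Cacng6 at -1.58 in air and -3.7 under benzene. Lcn2, which encodes lipocalin 2 of neutrophils and stressed tissue, had 2.85, 5.65 and 9.11 CPM in sham and 3.78, 10.7 and 20.5 CPM in TAC. Its log2 fold change was -0.28 (adjusted p = 0.342) in air and 1.69 (adjusted p = 3.69e-08) under benzene, and the difference was 1.97 (adjusted p = 0.00046). S100a9, a calcium-binding protein of neutrophils, stood at -0.09 in air and 1.89 under benzene, with a difference of 1.98 (adjusted p = 0.00173). Of 17 listed neutrophil markers 11 were tested, and 8 of these were higher in the average, against 14.0% of all genes. None was higher in air, where 1 was lower, and 10 were higher under benzene. The interaction was called for 5 of the 11, against 0.169% of all genes, and these were S100a8, S100a9, Lcn2, Retnlg and Mmp8. A weakly expressed marker can pass the filter on low counts through the group where it is high, so these counts depend on the filter. The summed level of all 11 markers ran from 19.8 to 38.6 CPM in sham and from 21.3 to 85.6 CPM in TAC. The neutrophil marker Csf3r rose by 0.81 ± 0.13 (adjusted p = 3.59e-05) in the average. For the cartilage matrix gene Chad the effects were 1.55 in air and -1.09 under benzene, so the average was 0.23 ± 0.18 (adjusted p = 0.371), not called. Clec3a behaved alike at 1.60 and -1.49, with an average of 0.06. The class II antigen gene H2-Aa stood at 0.24 and -0.47, and Cyp2e1, an enzyme that oxidizes benzene, at 0.07 and -1.87. Car3 fell by 1.28 ± 0.19 (adjusted p = 1.09e-05) in the average, with -0.30 in air and -2.26 under benzene. Of the genes whose averages are given above, Pfkp also had a called interaction, with effects of 0.90 in air and 1.36 under benzene.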

How the data were processed

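RNA of mouse left ventricle and septum was sequenced as paired reads from 24 poly-A libraries, per the labels' protocols. The authors deposited whole-number counts per gene symbol for each library, not normalised. The submitters' processing notes name STAR, DESeq2, FastQC 0.11.9 and, as build, mm9. Which program counted the reads, on which annotation and with which strand setting, is not given in the sources used here.

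Here, 13571 of 25229 symbols passed edgeR's filterByExpr (minimum count 10, minimum total 15), and the rest held 0.0747% of all counts. Of the rest, 5678 had no count. Counts were scaled by TMM and fitted in edgeR 4.0.16 (R 4.3.3) with a robust quasi-likelihood model of 4 group coefficients. The contrasts were the TAC effect averaged over exposure, the effect in each exposure and their difference. The threshold for a call was 0.05 for the p adjusted by Benjamini-Hochberg over all genes tested, and ± gives the standard error of a log2 fold change. With 12 libraries a surgery and 4170660 to 14632231 counts a library, the median standard error was 0.29 under 1 CPM and 0.09 from 100 CPM. The fit was tested on simulated data. Alternatives were DESeq2 1.42.0, limma-voom (limma 3.58.1) with quality weights, relative log expression factors, other filters, an additive model, the replicate number as a block, GC and length offsets, and leaving out each library. GC content and length were found for 97.9% of symbols.

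Genes were named by rule: the 6 highest and 6 lowest log2 fold changes from 1 CPM, the 10 genes in each direction with the smallest p among those called in the average only, the 5 in each direction under 1 CPM, up to 2 called genes of each list, the 6 smallest interaction p and the label check. A few genes chosen in this way are left out and not reported here. Cs, Mdh2, Pdhb, Yap1, Wwtr1, Ccn1, Ccna2, Ccnb1, E2f1, Mef2a, Ppargc1b, Esrrg, Ndufb5, Cox5b, Coq3, Coq9, Uros, Yars, Cars2, Hars2, Tgfb1, Rhoc, Rac2, Sema3b, Sema4a, Robo1 and the members listed only by name were added after their values were seen. The comparison and the 55 gene lists were chosen with earlier results of these data known. Deviations of same-numbered libraries of different groups had correlations from -0.529 to 0.466 (median -0.0488, over 0.1 in 9 of 36 pairs). No label states that the numbers are pairs, and they were not used as pairs. For some genes, such as Cox5b and Rhoc, replicates 1 to 3 and 4 to 6 tended to differ, in opposite directions in sham and TAC. The cause of this split was not tested.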

Additional observations from a re-analysis of the deposited data

Results flagged for a closer look

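In groups of 6 libraries, a value was set apart where its gap to the next one, as a share of the group's range, was above Dixon's critical value, and chance marks about 1 in 20 groups. Values are in CPM, each followed by the next value of its group.

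Sham/Air replicate 1 held the highest value of its group for Thbs4 19.9 (next 13.7), Ccl11 19.3 (next 8.71), Cenpf 145 (next 37.9), Abracl 50 (next 27.7), Mfsd8 42.3 (next 25.5), Mas1 3.41 (next 1.45) and Fgf10 5.4 (next 1.63). The same held for Myh7 424 (next 353), Atp2a2 23300 (next 17000), Lox 18.8 (next 9.6), Sulf1 59.1 (next 39.6), Sdha 2440 (next 2100), Suclg2 370 (next 305) and Bckdhb 116 (next 84.1). It was also so for Pfkp 69.6 (next 62.1), Rbfox1 96.9 (next 59.5), Khdrbs3 146 (next 70.7), Myh6 42100 (next 27300), Abcc9 1120 (next 582), Mcpt4 3.13 (next 1.65) and C3 382 (next 285). Further genes of this kind were Clec3a 7.96 (next 2.9), Wwtr1 239 (next 125), Ccna2 4.83 (next 2.91), Mef2a 862 (next 335), Esrrg 154 (next 79.7) and Robo1 9.94 (next 4.84). Sham/Air replicate 1 held the lowest value of its group for Ltbp2 3.41 (next 9.64), Rab4b 0.568 (next 8.93), Plpp2 0.568 (next 2.28), Fam129b 13.4 (next 36.1), Arap1 15.1 (next 37.1), Clip2 3.69 (next 13.9) and Rras 21.6 (next 40.9). The same held for Mmab 33.5 (next 53.2), Gcat 4.26 (next 15.8), Nppa 155 (next 263), Tln1 90.9 (next 194), Des 989 (next 1860), Xirp1 85.8 (next 170) and Tuba1a 33.8 (next 69.3). It was also so for Tagln2 30.1 (next 63.3), Loxl3 2.84 (next 6.92), Heyl 6.53 (next 29.5), Acaa2 994 (next 1120), Rpl3 121 (next 243), Clcn1 3.69 (next 8.46) and Meox1 9.66 (next 15.6). Further genes of this kind were Hdac11 4.83 (next 30.9), Cdkn1a 8.81 (next 16.6), Acta1 279 (next 463), Nppb 123 (next 295), Cs 612 (next 1650) and Mdh2 716 (next 1390). The last of them were Ndufb5 478 (next 540), Coq9 341 (next 648), Yars 17.3 (next 35.5), Eif4e2 43.5 (next 63.5) and Ipo4 14.2 (next 41.5).

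In Sham/Benzene replicate 1 the highest value of the group was that of Cyp1a1 28.9 (next 6.09), Rgs2 58.7 (next 42.2), Phkg1 32.8 (next 24.7) and Rpl3 312 (next 244). Sham/Benzene replicate 1 was lowest for Trabd2b 141 (next 163), Tln1 160 (next 194) and Acot1 9.91 (next 17.7). The highest value was that of Sham/Benzene replicate 2 for Pdss2 44.6 (next 39) and Aldh1l2 15.2 (next 12.1). In Sham/Benzene replicate 3 the lowest value of the group was that of Coq7 99.5 (next 112) and Fars2 58.7 (next 76). Sham/Benzene replicate 4 was highest for Ltbp2 19 (next 11.6), Thbs4 22.4 (next 15.1), Tagln2 90 (next 67.5), Hes1 30.9 (next 24.9) and Dkk3 53.3 (next 26.8). The lowest value was that of Sham/Benzene replicate 5 for Clcn1 7.33 (next 9.49). In TAC/Air replicate 4 the lowest value of the group was that of Tuba1a 87.8 (next 116). TAC/Air replicate 4 was highest for Wwtr1 179 (next 162) and Ccna2 5.61 (next 3.56). The highest value was that of TAC/Air replicate 5 for Csf3r 4.07 (next 3.43). In TAC/Benzene replicate 3 the highest value of the group was that of Hdac4 39.8 (next 32.6). TAC/Benzene replicate 4 was highest for Fgf10 0.588 (next 0.262) and Coq9 548 (next 535). The lowest value was that of TAC/Benzene replicate 5 for Dio3os 0.927 (next 1.36) and Dkk3 44.2 (next 47.3). In TAC/Benzene replicate 6 the lowest value of the group was that of Rras 51 (next 59.2), Tnni3 3120 (next 3640), Tgfb3 46.5 (next 55.6) and Igfbp7 529 (next 621).

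The TAC effect differed between the exposures for 8 named genes (edgeR's quasi-likelihood test of the interaction). The log2 fold change under benzene minus that in air was 0.47 for Pfkp (adjusted p = 0.0435), 1.98 for S100a9 (adjusted p = 0.00173), -1.95 for Car3 (adjusted p = 0.0266), 1.97 for Lcn2 (adjusted p = 0.00046), -2.64 for Chad (adjusted p = 0.000594), -3.09 for Clec3a (adjusted p = 0.0013), -0.71 for H2-Aa (adjusted p = 0.00173), -1.95 for Cyp2e1 (adjusted p = 0.00173).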

How the results depend on the processing

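Of 173 called genes chosen by the naming rule or added, 169 kept their call in every fit that left out 1 library and 164 under every other alternative, and no direction reversed in 5794 pairs of gene and alternative. The exceptions among fits leaving out 1 library were Cs, Mdh2, Yap1 and Ms4a1. Genes called higher and lower numbered 2970 and 2781 with limma-voom and 3167 and 3076 with GC and length offsets without Sham/Air replicate 1, an alternative chosen after seeing the data. With the offsets and all libraries they were 2769 and 2471, and with DESeq2 2090 and 2132. Leaving out 1 library gave 1765 to 2531 higher, 1671 to 2451 lower, 821 to 1008 in the average only and 15 to 49 with a called interaction. The interaction count was 14 with the replicate block, 55 with GC and length offsets, 189 with these offsets and without Sham/Air replicate 1, 91 with limma-voom and 57 with DESeq2. The cause of these shifts was not tested. The median log2 fold changes of 10 of the 55 lists, each a list of cell type markers, moved by over 0.1 under an alternative.

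The replicate block gave 1795 higher, 1585 lower and 940 in the average only, and 4 of 24 libraries correlated best with their own number. Of the 903 genes of the average only, the average called 616 with the block, 666 without a filter on low counts, 837 with limma-voom and 901 with DESeq2. The lowest of the fits leaving out 1 library called 673. Calls were lost for Cs, Mdh2, Yap1, Ppargc1b and Hars2 with the block, for Ms4a1, Cs, Mdh2 and Yap1 without the filter, for Yap1 with relative log expression factors, for Ms4a1 in the additive model, and for Dbi, Tma7, Cs and Coq3 with GC and length offsets.

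Depth limits the genes under 1 CPM, where a log2 fold change had a median standard error of 0.29, and p-values measure the spread between these libraries only.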
